A study of Rattus norvegicus with 18 samples.

Results

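The genes described here encode the protein components of the cytosolic ribosome, measured in 3 brain regions of rats kept under chronic immobilization stress or handled without stress. A gene was included where a probe set carried a single gene symbol of the ribosomal protein type (Rpl or Rps followed by a number, Rplp0, Rplp1, Rplp2 or Rpsa, with the ribosomal S6 kinase genes left out), and the brightest such probe set over all 18 arrays stood for its gene. This gave 57 probe sets for 50 genes among 14217 named genes on the array, and 43 of the 50 genes passed the filter on low signal. RNA of the amygdala, hippocampus and cortex was hybridised to Affymetrix rat expression arrays, in 6 groups of 3 arrays: handled amygdala, stress amygdala, handled hippocampus, stress hippocampus, handled cortex and stress cortex. The labels give neither the strain, age and sex of the rats nor the schedule of immobilization, name no genetic change, and do not tie regions to animals. Nothing in them tells whether arrays of 1 group hold RNA of different rats, pooled rats or the same extract, so the p-values below speak only of array-to-array spread, part or all of which could be technical.

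Ribosomes are built from ribosomal RNA and many different proteins, divided between a small subunit that decodes the messenger RNA and a large subunit that joins the amino acids. The proteins are needed in matched amounts, and their messenger RNAs rank among the most abundant of most cells. Those messenger RNAs typically begin with an uninterrupted run of pyrimidines, the terminal oligopyrimidine tract, through which the TOR kinase pathway controls their translation. In neurons part of the translation takes place in dendrites and axons, and protein synthesis is needed for lasting memory.

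The sequences around the annotated starts were searched for pyrimidine runs. RefSeq promoter windows of the GRCr8 assembly, from 250 bases before to 50 bases after the annotated start, were matched for 43 of the 50 genes. Matching was by gene identifier, or by symbol where the identifier was not found. A run of at least 8 pyrimidines lay within 20 bases of the start in 28 of those 43 windows (65.1%), against 15.3% of all 21842 windows of protein-coding genes; these are runs at any place in that stretch, before or after the start, and not counts of transcripts that begin with one. The GC box GGGCGG, searched on both strands of the 300 bases, was in 26 windows (60.5%, against 41.8% of all). The ETS-type motif CCGGAAG was in 10 (23.3%, against 10.7%) and the YY1-type motif AAGATGGC in 4 (9.30%, against 3.68%). The sequence TATAAA was in 6 (14%, against 13%) and the E-box CACGTG in 3 (6.98%, against 7.01%). The motifs differ from each other in their letters, a match is a description of the window, and a missing match says only that these letters are not in it. The lines that follow show the 15 bases before and the 15 bases after the annotated start, 5′ to 3′ on the gene's strand, with the longest pyrimidine run of the 30 bases in capitals, for the genes on which the comparisons turn. Rps28, Rps23 and Rpl27a are the genes with the smallest p-values after stress, Rpl12, Rps15a and Rpl35 stood out in the amygdala, Rpl24 and Rpl11 in the hippocampus, and among the 43 genes past the filter Rps4y2 and Rpl39 varied most over the groups and Rps9 varied least.
Rps28, chr7:15311319-15311348, minus strand: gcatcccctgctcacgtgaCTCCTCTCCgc
Rps23, chr2:23814502-23814531, plus strand: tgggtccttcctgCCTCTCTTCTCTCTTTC
Rpl27a, chr1:172974558-172974587, plus strand: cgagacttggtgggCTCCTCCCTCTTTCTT
Rpl12, chr3:36661925-36661954, plus strand: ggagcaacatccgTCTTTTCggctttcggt
Rps15a, chr1:181860270-181860299, minus strand: cggcgTTTTCTTTCCacagtcaccatggtg
Rpl35, chr3:43165907-43165936, minus strand: cgCCCCTTCCTCTTTCTCTCgaaccgggcg
Rpl24, chr11:58128391-58128420, minus strand: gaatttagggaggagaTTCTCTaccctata
Rpl11, chr5:153560788-153560817, minus strand: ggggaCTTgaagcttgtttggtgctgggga
Rps4y2, chr4:183000898-183000927, plus strand: gcgcgcagCTCTCCTCactcgcttgtgctc
Rpl39, chrX:121195882-121195911, minus strand: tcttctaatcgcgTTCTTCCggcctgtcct
Rps9, chr1:74430423-74430452, minus strand: tccggcggccacgTTTCTCTTTgtcacggg
Counted within 20 bases of the start, the longest run was 21 pyrimidines in Rps23, 20 in Rpl27a, 18 in Rpl35, 10 in Rps15a, and 9 in Rps28, Rps9 and Rpl39. It was 8 in Rps4y2, 7 in Rpl12, 6 in Rpl24 and 3 in Rpl11, so the genes named in the comparisons below did not all have a long run near the annotated start.

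Ribosomal protein probe sets were among the brightest on the arrays. Values are probe-set intensities on a linear scale, which the deposited table holds scaled to a common mean: the mean intensity after trimming 2% from each tail was 150.04 to 150.05 on all 18 arrays, so every value below is relative to the rest of the same array. Of the 50 genes, 38 had a mean intensity of 1000 or more, from 1447 for Rpl14 to 8308 for Rps29. The 5 brightest were Rps29 at 8308, Rpl26 at 7216, Rps23 at 6898, Rpl3 at 6261 and Rpl37a at 5164. These are readings of different probes and do not rank the transcripts.

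The remaining genes were much dimmer. The large-subunit gene Rpl39 had a mean of 153. Of 8 paralogs and pseudogenes, copies that can share probe sequence with the parent gene, 4 passed the filter: Rpl7l1 (315), Rpl26l1 (43.1), Rps4y2 (42.3) and Rps27l (34.6). The filter kept probe sets with a mean intensity of 31.7 or more. Rps27l lay just inside it and Rpl37-ps2 (29.6) just outside, followed by Rpl28 (25.2), Rpl39l1 (17.9), Rps13 (16.5), Rpl30 (15.8), the muscle paralog Rpl3l (7.43) and Rps4x-ps1 (4.90). A further 35 probe sets carried several symbols of which at least 1 was a ribosomal protein, and 34 of them passed the filter; they include brighter probe sets for Rpl28, Rpl30 and Rps13, and they are kept apart because a reading of theirs cannot be given to 1 gene.

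The summed ribosomal protein signal separated the regions within each treatment and, in hippocampus and cortex, the treatments. The sums were not tested. The summed intensity of the 38 bright genes was 161273 ± 4376 in handled amygdala, 143362 ± 4032 in handled cortex and 134706 ± 2631 in handled hippocampus (SD, n = 3 arrays each). These sums made up 2.51%, 2.25% and 2.09% of the summed intensity of the array. The 3 handled regions did not overlap: the lowest handled amygdala array had 156284, the handled cortex arrays lay between 139426 and 147484, and the highest handled hippocampus array had 137145. On the stress arrays the sums were 153275 ± 6630 in amygdala, 132991 ± 4336 in cortex and 124733 ± 4824 in hippocampus, in the same order and again without overlap between regions, although the highest stress hippocampus array (129660) lay close to the lowest stress cortex array (130104). Stress arrays lay below handled arrays of their region without overlap in hippocampus and in cortex. The stress cortex mean (132991) also lay below the handled hippocampus mean (134706). In the amygdala they overlapped, because stress amygdala 1 had 160923 while stress amygdala 2 and 3 had 149745 and 149155. The material is bulk tissue, in which fewer cells of a type and less RNA per cell cannot be told apart.

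**Figure D1:**
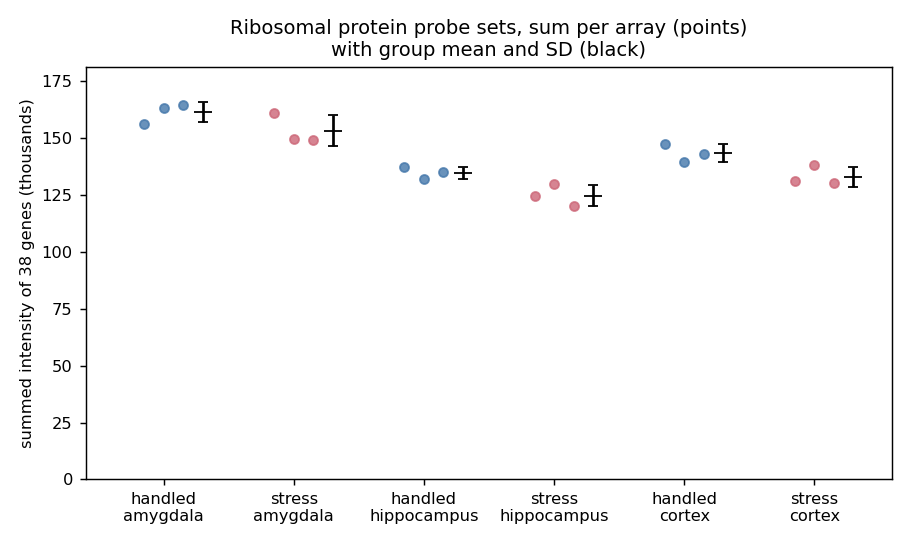
Summed intensity of the 38 bright ribosomal protein genes on each of the 18 arrays (points, axis from 0), with the mean and SD of the 3 arrays of a group in black and handled groups in blue, stress groups in red. The handled amygdala arrays lie highest (156284 to 164459) and the stress hippocampus arrays lowest (120020 to 129660).

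The region labels were checked against marker genes. One label field names the amygdala for all 18 arrays, while the titles name 3 regions. The summed intensity of 4 amygdala markers was 3706 to 3895 on handled amygdala arrays, 441 to 480 on handled hippocampus arrays and 819 to 851 on handled cortex arrays. That of 4 hippocampus markers was 1932 to 2160 on handled hippocampus arrays, 685 to 757 on handled amygdala arrays and 694 to 768 on handled cortex arrays. Singly, 3 of these 4 were called lower and 1 higher in handled amygdala than in handled hippocampus. In handled hippocampus against handled cortex 3 were called higher and 1 lower. The sums follow the titles, so the titles are used. Between 2 arrays of a group the correlation of log2 values over all probe sets was 0.961 to 0.986.

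The first comparison asks where in the handled brain the family is high. In limma, with the log2 of the intensity plus 16 as the value and Benjamini-Hochberg adjustment over 18625 probe sets, 33 of the 43 genes were higher in handled amygdala than in handled hippocampus at an adjusted p under 0.05, and 0 were lower. Of all probe sets tested, 28.6% passed in either direction and 15.7% were higher in the amygdala. The median difference of the 43 genes was 0.26 on the log2 scale, against 0.02 over all probe sets, and 41 of the 43 differences were above 0. One member, Rps4y2, passed the filter only through its amygdala arrays, so its region differences are given as a description; without it 32 of 42 genes were higher. By subunit, 10 of 14 small-subunit genes (median 0.29) and 23 of 29 large-subunit genes (median 0.26) passed. The small-subunit count and median include Rps4y2.

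Rpl12, which forms the base of the stalk where translation factors bind, read 3214, 3449 and 3346 on handled amygdala arrays 1, 2 and 3, against 2419, 2485 and 2624 in handled hippocampus. All 3 amygdala readings lay above all 3 hippocampus readings. The difference was 0.41 ± 0.06 (log2, standard error, limma adjusted p = 7.28e-06), a ratio of 1.33.
Rps15a, a core protein of the small subunit, read 5392, 5230 and 5623 in handled amygdala and 3972, 4307 and 4266 in handled hippocampus. It had the smallest p of the family, at 0.37 ± 0.05 (limma adjusted p = 4.63e-06). Rpl35, which lies near the exit of the tunnel for the growing chain, read 4135, 4726 and 4810 against 3515, 3451 and 3480, again without overlap, and differed by 0.38 ± 0.06 (limma adjusted p = 1.25e-05).
Rpl23a, at the mouth of the exit tunnel where the signal recognition particle docks, read 3353, 3445 and 3894 in handled amygdala and 2658, 2611 and 2558 in handled hippocampus, a difference of 0.44 ± 0.08. Rpl35a (0.40), Rps15 (0.36), Rpl37a (0.36) and Rpl24 (0.35) complete the 10 largest calls together with 2 dim genes. Of these, Rpl37a rests on handled hippocampus 2: without it the difference was 0.23 (limma adjusted p = 0.0750).

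The 2 largest differences belonged to dim probe sets. Rps4y2, a paralog of the small-subunit gene Rps4x, read 63.1, 57.2 and 84.5 in handled amygdala and 24.4, 47.7 and 35.1 in handled hippocampus, a difference of 0.72. Its mean over the hippocampus and cortex arrays was 30.2, below the filter's 31.7, and signal from a near-identical copy cannot be told apart from that of Rps4y2. Rpl39, a small protein in the wall of the exit tunnel, read 159, 180 and 229 in handled amygdala against 151, 73 and 121 in handled hippocampus, a difference of 0.68 ± 0.22 (limma adjusted p = 0.0210). Without handled hippocampus 2, the lowest of the 3, the Rpl39 difference was 0.42 and its adjusted p 0.162.

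The genes that did not pass were 10. Rplp0, the stalk protein that anchors the acidic proteins, had 0.12 ± 0.05 (limma adjusted p = 0.0918), and Rps3 (0.16), Rps29 (0.10), Rpl7 (0.07), Rpl7a (0.07), Rpl22 (0.07), Rpl7l1 (0.07), Rps27l (0.12), Rps9 (-0.03) and Rpl26l1 (-0.04) had larger adjusted p-values. Rps9, a small-subunit protein near the messenger RNA entry, read 2351, 2271 and 2495 in handled amygdala, 2396, 2415 and 2438 in handled hippocampus and 2267, 2182 and 2432 in handled cortex. These ranges overlap, and over the 6 group means its SD was 0.05 on the log2 scale, the lowest of the 43, against 0.46 for Rps4y2, 0.31 for Rpl39, 0.24 for Rpl23a and 0.23 for Rps28. In the members' order of group means, the largest class was amygdala above cortex above hippocampus, with 30 of 43 genes on handled arrays and 31 on stress arrays, 25 of them on both. The share of all probe sets with this order was not counted.

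**Figure D2:**
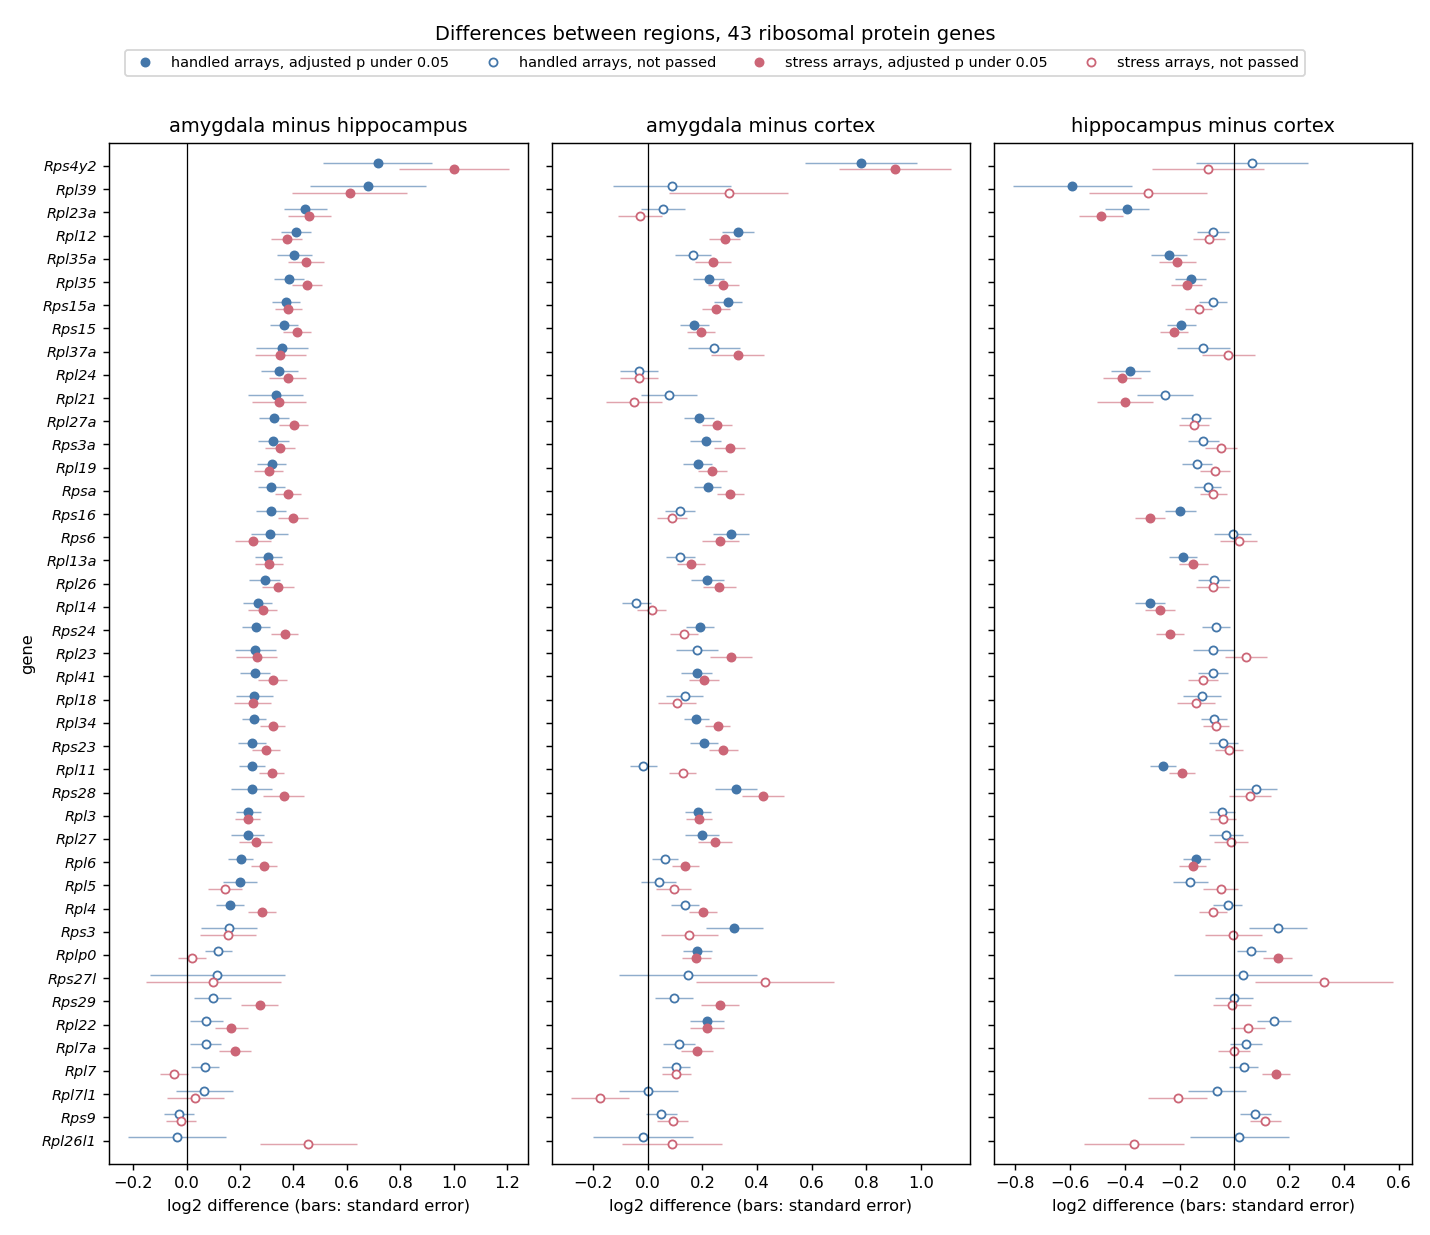
Log2 differences between regions for the 43 genes that passed the filter (points, with standard errors as bars), in order of the amygdala minus hippocampus difference on handled arrays; blue points are handled arrays, red points stress arrays, and filled points have an adjusted p under 0.05. In the first panel 33 handled points and 35 stress points are filled and lie to the right of 0, and in the third panel 11 handled points are filled and lie to the left.

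Against the cortex, the amygdala was higher by less. In limma 21 of the 43 genes were higher in handled amygdala than in handled cortex and 0 were lower, where 14.7% of all probe sets passed in either direction and 8.13% were higher. The median difference was 0.18 (all probe sets 0.01), and 39 of 43 differences were above 0. Among small-subunit genes 10 of 14 passed (median 0.21) and among large-subunit genes 11 of 29 (median 0.14). Rps4y2 is again among the small-subunit genes counted.
Rps15a read 4608, 4294 and 4341 in handled cortex, below each of its handled amygdala readings of 5230 to 5623, a difference of 0.29 ± 0.05 (limma adjusted p = 2.31e-04). Rpl12 read 2760, 2546 and 2646 in handled cortex and differed by 0.33 ± 0.06 (limma adjusted p = 2.64e-04). Rps6, the small-subunit protein phosphorylated by the S6 kinases, read 4512, 4801 and 4529 in handled amygdala and 3797, 3606 and 3793 in handled cortex, without overlap and with a difference of 0.30 ± 0.07.
Rps28, near the channel through which the messenger RNA leaves, had 0.32 ± 0.08 and the messenger RNA entry protein Rps3 had 0.32 ± 0.10. Rpl35, the laminin-receptor protein Rpsa, Rpl26 and Rpl22 each had 0.22. Rps4y2 read 45.3, 22.0 and 33.3 in handled cortex, all below its handled amygdala readings, with a difference of 0.78, which is again only a description; without this gene 20 of 42 genes were higher in amygdala than in cortex.

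The count of 21 depended on how the arrays were made comparable. It was 5 when each array was centred on its median, 11 after quantile normalization and 6 without the variance trend, 7 without handled cortex 2 and 11 without handled amygdala 3; no called gene changed sign under the scaling alternatives, and Rps15a, Rps6, Rpl12 and Rps28 passed under every alternative tried. Quantile normalization moved the median to 0.084, took Rps23 from 0.21 to 0.005 and took Rpl26 from 0.22 to 0.02. How many of all probe sets passed under these alternatives was not counted.

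Between hippocampus and cortex fewer genes of the family passed. On handled arrays 11 of the 43 genes were lower in hippocampus and 0 were higher, where 25.9% of all probe sets passed in either direction and 13.7% were lower. The median difference was -0.08 (all probe sets -0.01), with 33 of 43 below 0. Of the 11, 9 belong to the large subunit (of 29) and 2 to the small subunit (of 14).
Rpl24, which bridges the subunits, read 1649, 1638 and 1681 in handled hippocampus and 2385, 2108 and 2000 in handled cortex, so the regions did not overlap, and the difference was -0.38 ± 0.07 (limma adjusted p = 1.95e-04). Its handled amygdala readings of 2093, 1961 and 2291 overlapped those of the cortex. Rpl14, another large-subunit protein, read 1233, 1294 and 1277 against 1581, 1551 and 1587, a difference of -0.31 ± 0.05 (limma adjusted p = 1.13e-04).
Rpl11, which with Rpl5 can bind the ubiquitin ligase Mdm2 when ribosome assembly fails, read 2745, 2675 and 2787 in handled hippocampus against 3346, 3157 and 3340 in handled cortex, a difference of -0.26 ± 0.05. In handled amygdala it read 3139, 3274 and 3321, overlapping the cortex. Rpl23a read 3895, 3417 and 3016 in handled cortex, all above its hippocampus readings, with -0.39 ± 0.08.
The other 6 calls without overlapping arrays were Rpl35a (-0.24), Rps16 (-0.20), Rps15 (-0.19), Rpl13a (-0.19), Rpl35 (-0.16) and Rpl6 (-0.14), all on handled arrays. Rpl39 passed at -0.59 ± 0.22 (limma adjusted p = 0.0472) although its cortex readings of 142, 179 and 211 overlapped those of the hippocampus. Without handled hippocampus 2 it was -0.34 with an adjusted p of 0.293.
So Rpl24, Rpl14, Rpl11 and Rpl23a read lower in hippocampus than in both other regions, with amygdala minus cortex differences of -0.03, -0.04, -0.02 and 0.05. Rpl12, Rps15a, Rps6 and Rps28 instead read higher in amygdala than in both other regions, with hippocampus minus cortex differences of -0.08, -0.08, -0.01 and 0.08. None of these 8 smaller differences passed. The count of 11 lower genes was 5 without the variance trend and 22 after quantile normalization, which also moved the median to -0.14. The share of all probe sets called in these 2 settings was not counted.

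The stress arrays give each region comparison from other arrays of the same regions. In limma 35 of 43 genes were higher in stress amygdala than in stress hippocampus (27.8% of all probe sets passed, 15% higher), 27 were higher in stress amygdala than in stress cortex (19.8%, 9.68% higher), and 12 were lower and 2 higher in stress hippocampus than in stress cortex (25.4%, 13.4% lower and 12% higher). The medians were 0.32, 0.21 and -0.08. For amygdala over hippocampus, 32 genes passed on handled and on stress arrays alike, 97.0% of the handled list and 91.4% of the stress list, where over all probe sets the shared calls were 65.9% and 68.6%. For amygdala over cortex, 19 genes were shared (90.5% and 70.4%, against 56.8% and 47.8%), and for lower in hippocampus than cortex 10 genes (90.9% and 83.3%, against 71.1% and 72.4%). The shared counts of 32 and 19 both include Rps4y2. Handled and stress calls come from 1 fit with a shared estimate of the spread, so they are not independent of each other.
Rps4y2, described here without a test, read 59.1, 65.7 and 69.3 in stress amygdala against 26.9, 23.1 and 22.9 in stress hippocampus and 29.7, 27.0 and 24.5 in stress cortex. Its differences were 1.001 and 0.90, and no array of the amygdala overlapped one of the other regions. Without it the counts for the stress amygdala were 34 and 26 of 42. Rplp0 (0.16) and Rpl7 (0.15) were the 2 genes that passed as higher in stress hippocampus than in stress cortex.

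Cell-type markers and RNA measures also differed between the regions. The summed intensity of 7 oligodendrocyte markers was 16220 to 17367 in handled amygdala, 20942 to 23316 in handled hippocampus and 11062 to 11603 in handled cortex, and the 7 were lower in amygdala than in hippocampus and higher in amygdala than in cortex. Of 7 microglia markers that passed the filter, 6 were higher in handled amygdala than in handled hippocampus, and the sums over the 8 measured were 1235 to 1273 and 811 to 855. Of 8 neuron markers 2 were higher and 5 lower, with sums of 14574 to 15266 and 17380 to 18080. Of 7 astrocyte markers 4 were higher and 1 lower, with sums of 22421 to 22873 and 20579 to 21375. The sums of 7 meningeal fibroblast markers were 1384 to 1429 in handled cortex, 350 to 433 in handled amygdala and 461 to 501 in handled hippocampus, and 6 of the 7 were lower in each of these than in cortex. Blood markers summed to 3117 to 3355 in handled cortex, 2075 to 2304 in amygdala and 2022 to 2187 in hippocampus, with 1 of 2 lower than in cortex in each. The 5 choroid plexus markers summed to 1216 to 1355 in handled hippocampus, 625 to 643 in amygdala and 147 to 207 in cortex. Of 6 endothelial markers 2 were higher in amygdala than in hippocampus and 3 lower in hippocampus than in cortex. Against the cortex, 4 of 8 neuron markers were higher in amygdala and 1 lower, as were 4 and 0 of 7 astrocyte markers and 2 and 1 of 7 microglia markers. In hippocampus against cortex 4 neuron markers were higher and 1 lower, 2 astrocyte markers were higher, and 4 microglia markers were lower. Probe sets for the 3′ and 5′ ends of beta-actin differed by 2.08 ± 0.08 on the log2 scale in handled amygdala, 1.55 ± 0.23 in handled hippocampus and 1.67 ± 0.05 in handled cortex, and those of GAPDH by 0.45, 0.26 and 0.29. For hexokinase the order was another, with 0.91 ± 0.08, 1.12 ± 0.12 and 1.21 ± 0.11, so the amygdala was highest for beta-actin and GAPDH and lowest for hexokinase. The part of the markers and of the 3′ to 5′ ratio in the region differences was not tested. The 1150 other probe sets with a mean of 1000 or more had medians of -0.04 (amygdala minus hippocampus), -0.02 (amygdala minus cortex) and 0.02 (hippocampus minus cortex). The 94 others of 4000 or more had -0.04, 0.11 and 0.13, where the 13 ribosomal protein genes of that brightness had 0.32, 0.19 and -0.11. For amygdala minus cortex these 94 thus lay on the same side of 0 in the median, with 27.7% called higher and 4.26% called lower. The part of brightness in the region differences was not tested.

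**Figure D3:**
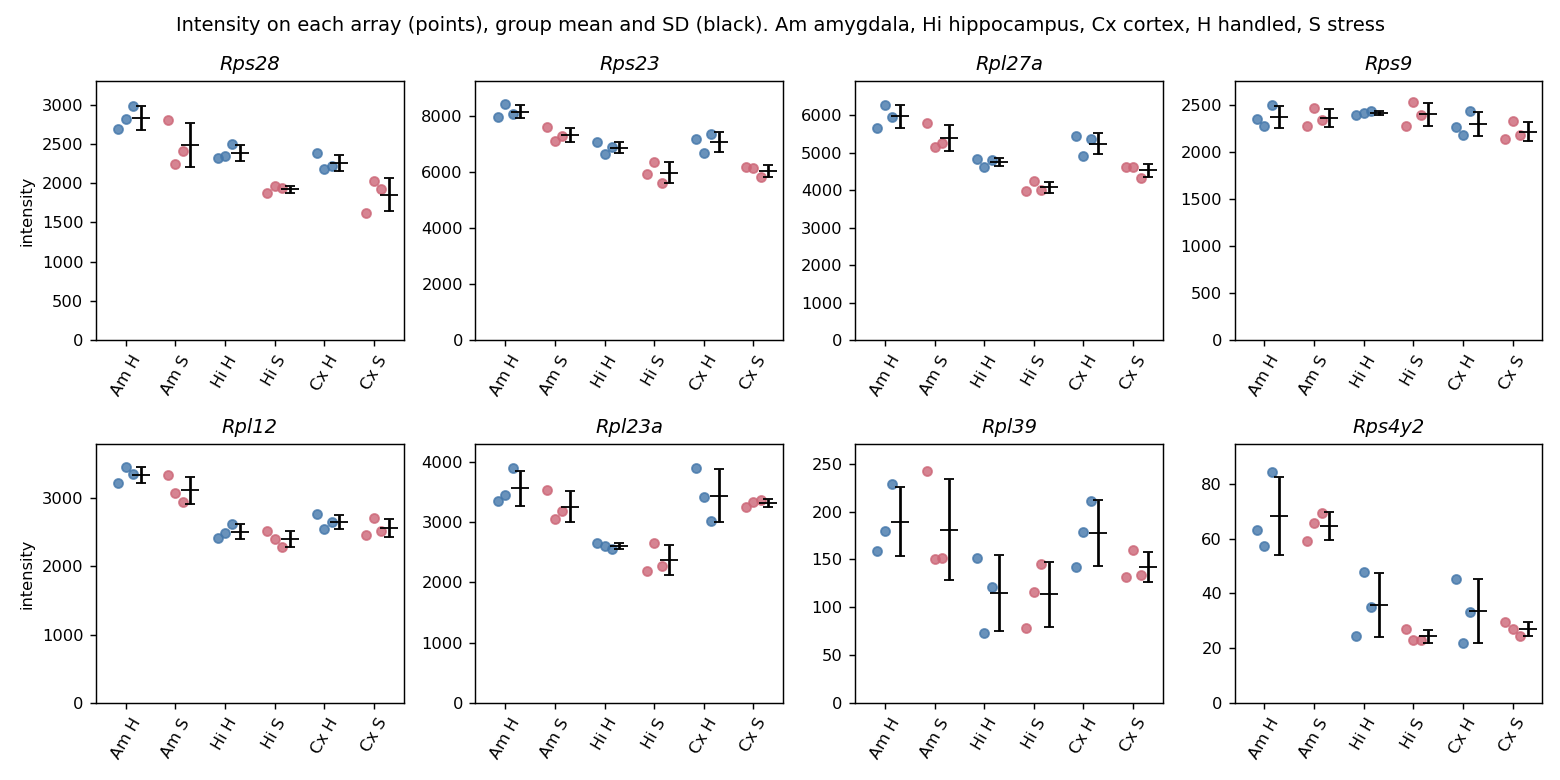
Intensity on each of the 18 arrays (points, axes from 0) for 8 ribosomal protein genes, with the mean and SD of each group of 3 in black; handled arrays are blue and stress arrays red. Rps28, Rps23 and Rpl27a are lower on stress arrays within each region on average, Rpl12 and Rps4y2 are high in amygdala, Rpl23a is low in hippocampus, Rpl39 scatters widely, and Rps9 stays between 2141 and 2528 on all arrays.

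The next comparison is that of chronic immobilization stress with handling within each region. No single gene of the family passed in any region: in limma 0 of 43 genes had an adjusted p under 0.05 in amygdala, hippocampus or cortex, where 2.41%, 0.365% and 0.387% of all probe sets passed. At an unadjusted p under 0.05, 5 genes were lower in amygdala, 13 in hippocampus and 13 in cortex (7.44%, 5.71% and 5.21% of all probe sets), and 0 were higher in any region (6.2%, 5.15% and 5.01% of all). The differences lay mostly below 0, in 36, 38 and 37 of the 43 genes, with medians of -0.07, -0.09 and -0.10, where the medians over all probe sets were 0.01, 0.00 and 0.00. Stress and handled arrays did not overlap, with stress lower, for 6 genes in amygdala, 15 in hippocampus and 17 in cortex (8.48%, 7.04% and 11.2% of all probe sets); in the other direction it was 1 gene, Rpl11, in amygdala (8.11% of all) and 0 genes in hippocampus and cortex (7.12% and 12.1% of all). A fit on the 6 cortex arrays alone called 6 genes, each lower on the stress arrays. The share of all probe sets called in that fit was not counted. Median centring moved the hippocampus median to -0.039, and the median over all probe sets there to 0.050. Quantile normalization moved the amygdala median from -0.067 to -0.012 and the cortex median to -0.041, where the medians over all probe sets were 0.009 and 0.005. With 3 arrays against 3, an exact permutation test of a single gene cannot go below p = 0.1.

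The same 3 genes had the smallest p-values in each region. Rps23, a protein of the decoding centre that bears on translational accuracy, read 7970, 8409 and 8055 in handled amygdala and 7581, 7098 and 7274 in stress amygdala. In hippocampus it read 7060, 6644 and 6891 when handled and 5927, 6350 and 5605 under stress, and in cortex 7163, 6662 and 7360 against 6179, 6133 and 5800. The stress arrays were thus lower without overlap in all 3 regions, with log2 differences of -0.15, -0.20 and -0.22 (standard error 0.05) and limma adjusted p-values of 0.149, 0.0950 and 0.0584.
Rpl27a, a protein of the large subunit, read 5673, 6288 and 5968 in handled amygdala and 5804, 5151 and 5263 in stress amygdala, which overlap. In hippocampus it read 4829, 4635 and 4816 against 3987, 4256 and 4019, and in cortex 5443, 4925 and 5377 against 4636, 4620 and 4340, without overlap in either. The differences were -0.14, -0.22 and -0.21 ± 0.06, with limma adjusted p-values of 0.215, 0.0926 and 0.112.
Rps28 read 2689, 2811 and 2987 in handled amygdala and 2803, 2249 and 2412 in stress amygdala, where stress amygdala 1 reached the handled range. It read 2319, 2342 and 2500 against 1871, 1961 and 1934 in hippocampus, and 2378, 2185 and 2213 against 1619, 2023 and 1921 in cortex, without overlap in these 2 regions. The differences were -0.19, -0.31 and -0.29 ± 0.08, with limma adjusted p-values of 0.252, 0.0851 and 0.117.

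Averaged over the 3 regions, 10 of the 43 genes were lower after stress and 0 were higher. In this limma contrast, the mean of the 3 regional differences on all 18 arrays, 4.66% of all probe sets passed and 3.07% were lower. The median of the 43 genes was -0.08 (all probe sets 0.01), and 6 of 14 small-subunit genes and 4 of 29 large-subunit genes passed.
The largest differences were those of Rps28 at -0.26 ± 0.04 (limma adjusted p = 7.75e-04, ratio 0.834), Rps23 at -0.19 ± 0.03 (3.38e-04, ratio 0.874) and Rpl27a at -0.19 ± 0.03 (7.02e-04, ratio 0.876). Next came the small-subunit gene Rps16 (-0.15, ratio 0.901), the large-subunit gene Rpl22, known also for binding viral RNA (-0.15), and the zinc-binding small-subunit gene Rps29 (-0.14). Rpl26, Rpl41 (which encodes a very short basic peptide at the face between the subunits), Rpsa and Rps24 fell by 0.13, 0.13, 0.12 and 0.10 on the log2 scale. Each of the 10 was below 0 in all 3 regions.

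Per array, the smaller calls show how far the arrays of a group spread. Rps16 read 5097, 5516 and 5824 in handled amygdala and 5067, 4820 and 5082 in stress amygdala, and 4399, 4269 and 4510 against 3559, 3879 and 3919 in hippocampus. In cortex its readings of 4937, 5238 and 4940 overlapped those under stress (4554, 4978 and 4541).
Rps29 read 9270, 9904 and 8175 in handled amygdala and 9084, 8608 and 9043 in stress amygdala, so the amygdala arrays overlapped. They did not in hippocampus (9475, 7881 and 8198 against 7612, 7739 and 6797) or in cortex (8784, 7999 and 8736 against 7398, 7657 and 7182).
Rpsa was lower without overlap in all 3 regions: 2447, 2542 and 2479 against 2395, 2328 and 2392 in amygdala, 1983, 1974 and 2025 against 1851, 1756 and 1852 in hippocampus, and 2231, 2052 and 2125 against 1854, 2017 and 1893 in cortex. Rps23 and Rpsa were the only 2 of the 43 genes with that pattern, which 0.736% of all probe sets showed.
Rpl11 went the other way in amygdala, with 3139, 3274 and 3321 when handled and 3426, 3490 and 3345 under stress (0.08 ± 0.05, limma adjusted p = 0.522), and its mean over the regions was 0.00.

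**Figure D4:**
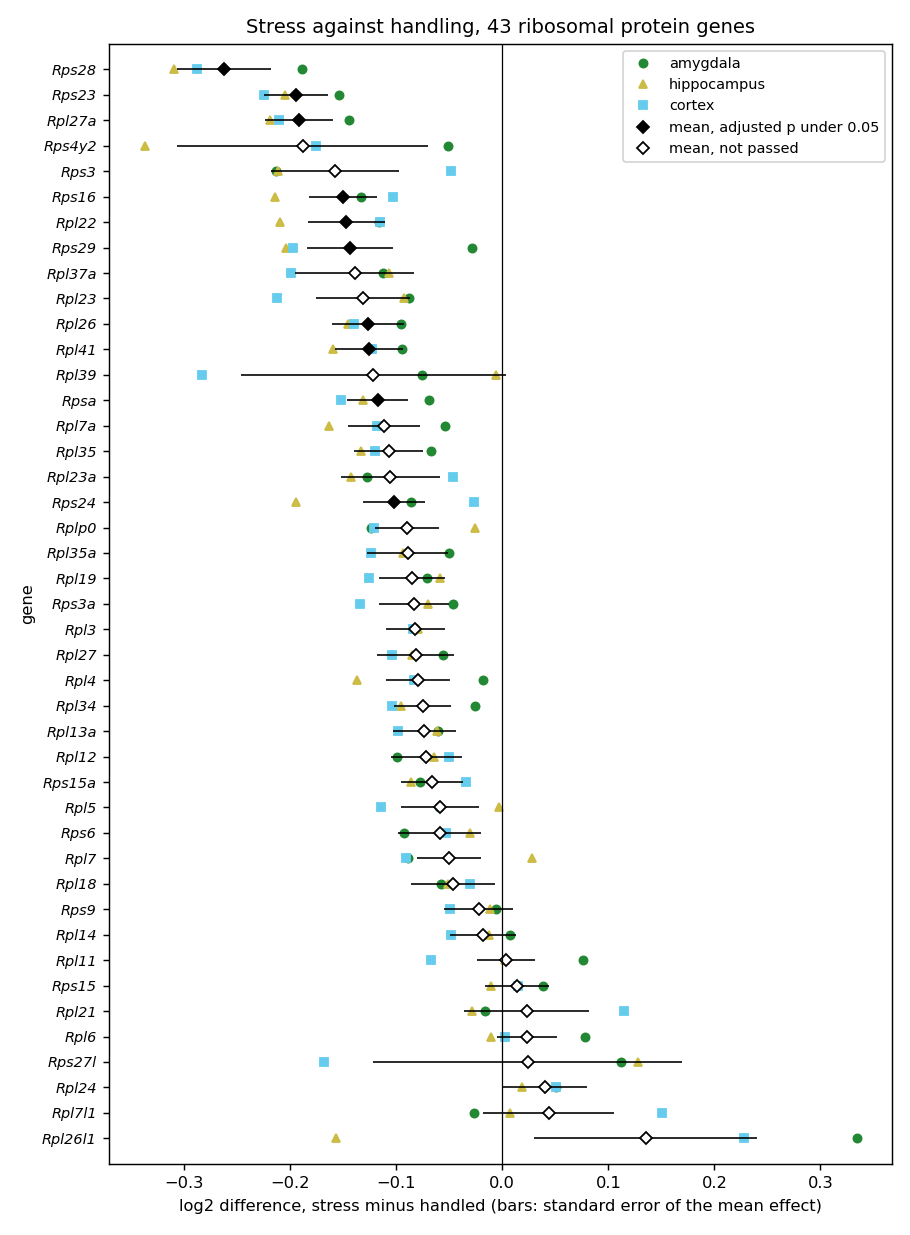
Log2 difference of stress minus handled for the 43 genes that passed the filter, in amygdala (circles), hippocampus (triangles) and cortex (squares), and the mean of the 3 regions (diamonds, with its standard error as a bar; filled where the adjusted p is under 0.05). The 10 filled diamonds all lie below 0, from -0.26 for Rps28 to -0.10 for Rps24.

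Counting signs, 33 of the 43 genes (76.7%) were below 0 in all 3 regions and 1 was above 0 in all 3. Of all 18625 probe sets 16.9% were below 0 in all 3, and 3437 were above 0 in all 3. The members share libraries, and the 43 signs are not independent observations. The smallest changes in the mean were those of Rpl11 (0.00), Rps15 (0.01), Rpl14 (-0.02) and Rps9 (-0.02), and the values above 0 included the dim paralog Rpl26l1 (0.14 ± 0.11). Quantile normalization, which gives all arrays the same distribution of values, brought Rps23 to -0.11 (adjusted p = 0.0176), Rpl27a to -0.12 (adjusted p = 0.0126), Rps29 and Rpl26 to -0.02 each, Rps16 to -0.08 and Rps24 to -0.04, the last 4 no longer passing. Rps23, Rpl27a and Rps28 passed in limma under every alternative tried. The count of 10 was 6 without handled amygdala 2, without stress cortex 1, without stress cortex 3 or without handled cortex 1, 16 without stress amygdala 1, 4 with median centring, 6 after quantile normalization, 6 with no filter and 3 without the variance trend. Shares of all probe sets called were not counted for these alternatives.

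The brightest of the other probe sets moved in the same direction after stress. The 94 probe sets of 4000 or more that are not ribosomal protein genes had a median of -0.06 in the mean over regions, with 86.2% below 0 and 18.1% called lower, where the 13 ribosomal protein genes of that brightness had a median of -0.10. For the 1150 others of 1000 or more the median was 0.01, with 47.7% below 0, where the median of the 38 genes was -0.08. For the 398 others of 2000 or more, the range that includes Rps28 (2290) and Rpsa (2122), the median was -0.02, with 59.3% below 0, 9.55% called lower and 2.51% called higher. The part of brightness in the differences was not tested further.

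Some cell-type markers and 1 RNA measure moved with the treatment as well. In the mean over regions 2 of 2 blood markers were lower after stress, with sums of 2075 to 2304 on handled and 1526 to 1827 on stress amygdala arrays, 2022 to 2187 and 1086 to 1312 in hippocampus, and 3117 to 3355 and 1933 to 2092 in cortex. Of 7 meningeal fibroblast markers 5 were lower, with sums in cortex of 1384 to 1429 when handled and 530 to 594 under stress. Of 7 oligodendrocyte markers 2 were lower, and 1 of 7 microglia and 1 of 6 endothelial markers. Of 8 neuron markers 1 was higher, as was 1 of 7 astrocyte markers and 1 of 4 choroid plexus markers. In hippocampus the choroid plexus sum was 1216 to 1355 when handled and 3529 to 3736 under stress (2 of 4 called higher), and the oligodendrocyte sum was 20942 to 23316 and 17729 to 19995, without overlap (2 of 7 called lower). The 3′ minus 5′ log2 difference of hexokinase was 0.91 ± 0.08, 1.12 ± 0.12 and 1.21 ± 0.11 on handled amygdala, hippocampus and cortex arrays and 1.40 ± 0.07, 1.30 ± 0.18 and 1.38 ± 0.13 on stress arrays, whereas for beta-actin it was 2.08, 1.55 and 1.67 against 2.16, 1.61 and 1.62. Their part in the fall of the ribosomal protein genes was not tested.

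Whether the response to stress differed between regions was tested as the difference between the regional stress effects. In limma 0 of 43 genes passed in amygdala minus hippocampus, amygdala minus cortex or hippocampus minus cortex, where 0.0376%, 0.129% and 0.0859% of all probe sets passed. At an unadjusted p under 0.05 the counts were 0, 1 (Rpl11, 0.14 ± 0.07 higher in amygdala) and 1 (Rps24, -0.17 ± 0.07, lower in hippocampus), where 8.05%, 9.71% and 5.61% of all probe sets passed that threshold. For Rps28 the 3 differences were 0.12 ± 0.11, 0.10 ± 0.11 and -0.02 ± 0.11. The regional effects of the 43 genes were therefore not shown to differ, and the standard errors leave room for differences of the size of the effects themselves.

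Probe sets that read the same gene at other places gave a partial check. Of the 6 genes with more than 1 probe set, 4 had at least 2 past the filter. The 3 probe sets of Rpsa were -0.12, -0.17 and -0.08 after stress in the mean over regions, of which the first 2 passed, and 0.32, 0.35 and 0.36 for amygdala over hippocampus on handled arrays, where all 3 passed. The second probe set of Rpl3, with a mean of 210 against 6261 for the first, was 0.39 after stress (limma adjusted p = 0.0724) where the first was -0.08, so the 2 disagree in sign; for amygdala over hippocampus they were 0.28 and 0.23. The 2 probe sets of Rpl7 (means of 3309 and 114) disagreed in sign between amygdala and hippocampus, at 0.07 and -0.07, neither passing. The 2 probe sets of Rpl7l1 were 0.07 and 0.04 there, also without a call. Adding the 34 probe sets with several symbols, the counts became 61 for amygdala over hippocampus, 34 for amygdala over cortex, 25 for hippocampus under cortex and 22 for lower after stress in the mean, that is 28, 13, 14 and 12 more.

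Other genes of translation were counted in the same comparisons. After stress, in the mean over regions, 0 of 10 elongation factor genes, 0 of 35 initiation factor genes and 0 of 16 genes of TOR and S6 kinase signalling passed. Of 34 genes of ribosome assembly and the nucleolus 1 fell, Polr1d, a shared subunit of RNA polymerases I and III (-0.21 ± 0.06), and of 73 mitochondrial ribosomal protein genes 1 rose, Mrps34 (0.28 ± 0.06). Their medians were 0.02, 0.00, 0.05, 0.03 and 0.01.
Between handled amygdala and handled hippocampus the medians were 0.09 for elongation (2 higher, 2 lower), -0.04 for initiation (1 higher, 4 lower), 0.01 for assembly (2 higher, 3 lower) and 0.00 for mitochondrial ribosomal proteins (3 higher, 5 lower). Among elongation genes Eef1g (0.30) and Eef1b2 (0.27), both subunits of the exchange factor that reloads the tRNA carrier, were higher, and Eif5a2 (-0.37) and Eif5a (-0.22) were lower. The RNA helicases Eif4a3 (-0.35) and Eif4a1 (-0.35) led the initiation genes.
Of the TOR and S6 kinase list 8 of 16 were higher in amygdala and 14 of 16 were above 0 (median 0.23), and 6 of 16 were lower in handled hippocampus than in handled cortex (median -0.12). The largest were Rps6ka2 (0.94 ± 0.14), Rps6ka5 (0.94 ± 0.10) and Rps6ka4 (0.73 ± 0.11), which encode kinases of the family activated by MAP kinases and not the TOR-activated S6 kinases, while Tsc1 (0.43), Akt1 (0.25), Mtor (0.23) and Tsc2 (0.23) belong to the TOR pathway. The number called on a list depends on the brightness and spread of its probe sets, and the lists were not tested against each other.

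**Figure D5:**
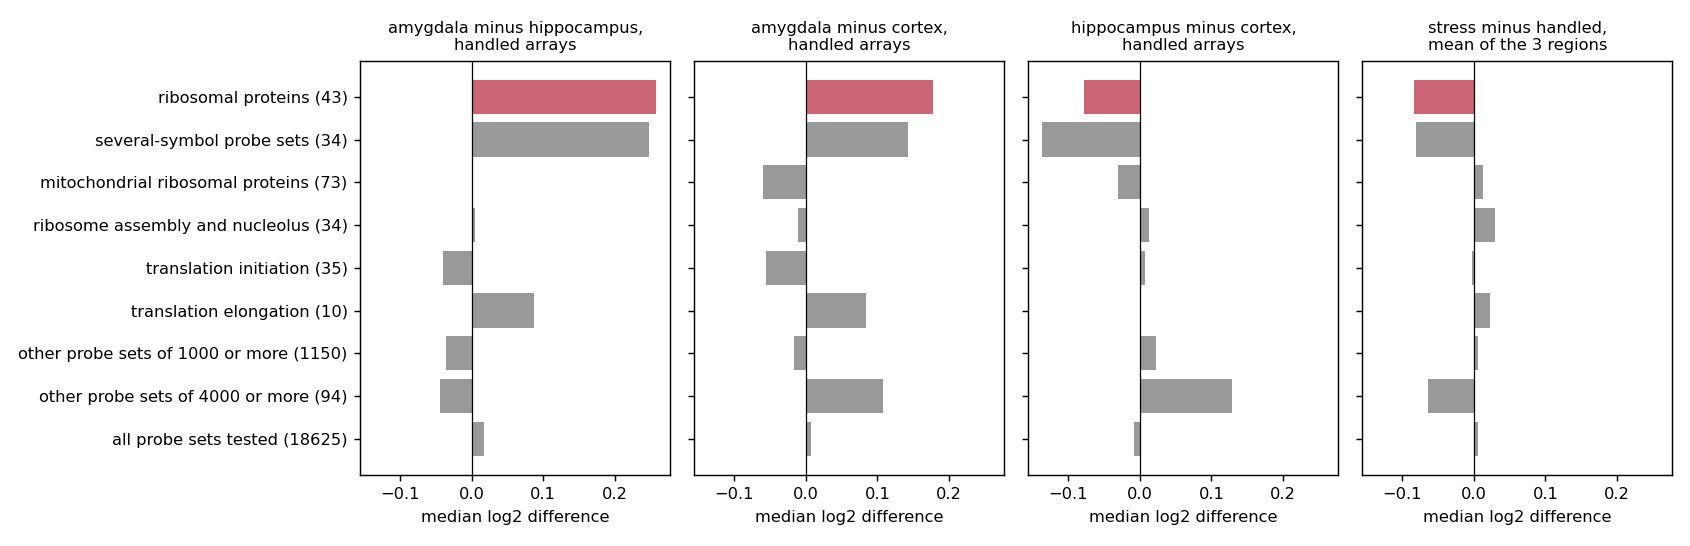
Median log2 difference (bars, from 0) of the 43 ribosomal protein genes (red) and of other lists (grey, with the number of probe sets), for the 3 region pairs on handled arrays and for stress minus handled in the mean over regions. The ribosomal protein bar is 0.26, 0.18, -0.08 and -0.08 in the 4 panels, the probe sets with several symbols lie on the same side of 0 in each, and the mitochondrial ribosomal protein bar is 0.00, -0.06, -0.03 and 0.01.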

How the data were processed

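RNA of 3 brain regions was measured on 18 Affymetrix rat arrays. The authors deposited a table of 31099 probe-set intensities on a linear scale, including 57 control probe sets; a scaling to a common trimmed mean is visible in the values, the software and its settings being not given in the sources used here. Groups follow the sample titles. Gene symbols come from the platform annotation: 20826 probe sets have 1 symbol, 436 several and 9780 none. Control probe sets were left out, log2(intensity + 16) was taken, and probe sets at or above the 40th percentile of mean intensity (31.7) were tested, 18625 in all. limma 3.58.1 in R 4.3.3 fitted 6 group means with a variance trend (12 residual degrees of freedom), and Benjamini-Hochberg adjustment ran over all probe sets tested, with a threshold of 0.05. Fold changes are on the log2(intensity + 16) scale, which understates changes of dim genes. With 3 arrays a group, the number of arrays limits the precision. The scripts were tested on simulated data. Members, lists and tests were chosen with earlier results of these data known. Genes named are, per comparison, the 10 largest calls in a direction whose arrays do not overlap (in the mean over regions, those of 1 sign in all 3), the 3 of smallest p where nothing passed, the 5 brightest, the 5 most variable, paralogs, probe sets that disagree, and up to 3 calls a direction for other lists; Rps9, Rpl14, Rps15 and Rpl11 in places, and single genes that did not pass, were named after their values were seen. Alternatives were another offset, other filters, median centring, quantile normalization, no variance trend, only the arrays compared, a replicate block, single arrays left out and, added after seeing the data, a filter on mean log2 and probe sets with several symbols. Sequences are from RefSeq (GRCr8).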

Additional observations from a re-analysis of the deposited data

How the results depend on the processing

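Over all alternatives, 174 counts and 140 medians or levels of the family stayed within the limits set (1.5 times for a count, the spread between arrays for a median), 23 counts and 6 medians moved, and none changed sign. Leaving out single arrays gave 6 to 16 genes lower after stress in the mean over regions, 7 to 18 higher in amygdala than cortex, 27 to 33 higher in amygdala than hippocampus, 8 to 10 lower in hippocampus than cortex, 31 to 39 that differ between any stress regions, and 0 in every regional stress comparison. Median centring gave 5 (amygdala over cortex, median 0.12) and 4 (mean stress), and medians of 0.22 (amygdala over hippocampus) and -0.039 (hippocampus stress). The medians over all probe sets were then -0.050 (amygdala minus cortex), -0.024 (amygdala minus hippocampus) and 0.050 (hippocampus stress). Quantile normalization gave 11 (amygdala over cortex, median 0.084), 22 (hippocampus against cortex, median -0.14) and 6 (mean stress), and a median of -0.041 for cortex stress. Without the variance trend the counts were 6, 5 and 3 for amygdala over cortex, hippocampus against cortex and mean stress. With no filter mean stress had 6. Fitting only the arrays compared gave 6 genes in cortex stress, where the fit on all arrays gave 0. The share of all probe sets called was not counted in the cortex-only fit or in any other alternative. Adding the probe sets with several symbols gave 61, 34, 25, 22, 1 (hippocampus stress) and 69 (any pair of stress regions, from 37); more probe sets were counted there. For the other settings the cause was not tested. Fitting only the arrays compared is the same as the fit reported for the mean over 3 regions. The largest shift of the median of all probe sets under another scaling was 0.06, for amygdala minus cortex with median centring. Replicate numbers are shared between groups. The pairing check found correlations of -0.04 to 0.10 between same-numbered arrays (median 0.0004, none above 0.1). Between arrays of different number they were -0.14 to 0.11, and 4 of 18 arrays correlated best with one of their own number. Weak correlations between regions cannot tell whether same-numbered arrays share a rat or a batch. With a replicate block the counts were 10 (mean stress), 33, 20 and 10 (region pairs) and 0 in each regional stress comparison. Of the calls named, 23 of 33, 4 of 21, 5 of 11 and 3 of 10 passed under every alternative. Dim genes (Rps4y2, Rps27l, Rpl26l1) are limited by signal near background.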
